A study of Rattus norvegicus with 26 samples.

Results

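The proteasome subunits were followed as 49 probe sets of 27 genes, out of 8799 probe sets on the array, which name 4737 genes singly. A probe set was a member if the platform's probe-to-gene table gave it a single gene whose symbol begins with Psma, Psmb, Psmc, Psmd or Psme. Of these, 44 passed the filter on low values, which asks that the second-highest value over the arrays lie above 3.71 on the log2 scale, and each of the 27 genes kept at least 1 probe set. The 5 that did not pass were rc_AI009111_at of Psma1, rc_AA891383_i_at of Psma5, rc_AA799492_at of Psma6, U57050_at of Psmd1 and rc_AA799484_at of Psme1. Another 5 probe sets name a proteasome gene together with other genes and were not analysed here. These include the probe sets of Psmb6, Psma3 and Psme3. No probe set of the table named Psmb7 or Psmb10.

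The study compared dose responses to TCDD, a chlorinated dibenzo-p-dioxin, and PCB 126, a coplanar polychlorinated biphenyl, which both bind the aryl hydrocarbon receptor (AhR). Primary liver hepatocytes of female Crl:CD(SD)IGS BR rats, a Sprague Dawley strain, were exposed for 48 hours to a chemical or to 0.5% DMSO, the vehicle. They came from 2 pools of 3 animals each, so a pool mixes animals and is 1 biological unit, and all cells had been taken into culture. Expression was measured on 26 rat oligonucleotide arrays, 11 of pool 1 and 15 of pool 2, with 1 vehicle array in each pool. Doses are given as log10 of the molar concentration. Both pools received TCDD at -14, -12, -10, -8 and -6.5 and PCB 126 at -12, -10, -8, -6 and -5, and pool 2 also received each chemical at -11 and -9. A dose therefore had 2 arrays, 1 per pool, or 1 array, and p-values measure the spread between arrays.

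The proteasome degrades proteins tagged with ubiquitin. Its 20S core is a stack of rings of alpha subunits (Psma genes), which gate the entrance, and beta subunits (Psmb genes), a few of which carry the proteolytic sites. The 19S cap holds ATPases (Psmc genes), which unfold substrates, and non-ATPase subunits (Psmd genes), which bind ubiquitin and form the lid. Interferon gamma induces the immunoproteasome subunits Psmb8 and Psmb9, which replace the catalytic subunits Psmb5 and Psmb6 in newly assembled cores, and the 11S activator subunits Psme1 and Psme2, which open the core without ATP and favour peptides for antigen presentation. Psme4 encodes the separate activator PA200. In hepatocytes the proteasome also degrades the AhR after ligand binding.

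Of 9 hepatocyte marker genes 8 had a probe set and all 8 passed the filter, and their summed signal ran from 15.93 to 16.47 (log2) over the arrays of pool 1 and from 16.24 to 16.47 in pool 2. The summed signal of the macrophage and Kupffer cell markers, of which 6 of the 9 with a probe set passed, ran from 8.35 to 9.13 and from 8.45 to 9.29. Endothelial markers passed for 1 of 5 genes, lymphocyte markers for 2 of 5 and cholangiocyte markers for 2 of 4. Some passed near the threshold of 3.71. Means in pools 1 and 2 were 4.53 and 3.82 for endothelial Kdr, and 3.81 and 3.39 for lymphocyte Cd3g. They were 4.45 and 3.57 for lymphocyte Cd79b. Among macrophage and Kupffer cell probe sets they were 3.84 and 3.37, and 3.89 and 3.40, for Aif1. They were 4.06 and 3.64 for C1qc, 3.95 and 3.58 for Cd74, and 5.32 and 4.34 for Ptprc. Cd14 had 4.67 and 4.81, and 3.69 and 3.31, by its probe sets. Lyz2 was the brightest, at 7.52 and 8.12, and Clec4f and Csf1r did not pass. The cholangiocyte markers Epcam and Spp1 averaged 5.50 and 6.07, and 3.44 and 5.52. Stellate cell and fibroblast markers passed for 6 of 9, with a summed signal from 10.80 to 13.22 in pool 1 and from 11.60 to 13.16 in pool 2. Cyp1a1, the AhR's best-known target, lay at 3.45 and 3.28 on the vehicle arrays and at 12.77 and 11.69 at the highest TCDD dose. The pool 2 array labelled PCB 126 at -12 had Cyp1a1 at 10.80 and the pool 1 array at 3.21, so results that use that array are also given without it where it changes a call. In such bulk cultures fewer cells of a type and less RNA per cell cannot be told apart.

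Most proteasome subunits showed no dose trend that passed the test, and the subunits with positive slopes with both chemicals included the 6 probe sets of the interferon-inducible Psmb8, Psmb9, Psme1 and Psme2. A trend was the slope of log2 signal per 10-fold increase in dose, fitted in limma over the 12 arrays of each chemical with the pool as a term and the vehicle apart, and a call needed a Benjamini-Hochberg adjusted p below 0.05 over 5197 probe sets. For TCDD 0 of 44 members were called, while 3.1% of all probe sets tested were called, and 6 members had an unadjusted p below 0.05, 4 of them positive. For PCB 126 the 11S activator subunit Psme1 was called, 1 of 44 members, against 4.25% of all probe sets, and 6 had an unadjusted p below 0.05, 4 of them positive. The shares with an unadjusted p below 0.05 were 13.6% of members for each chemical, against 14.5% of all probe sets for TCDD and 16.9% for PCB 126. The median member slope was 0.00 for TCDD and -0.00064 for PCB 126, against medians of -0.01 and 0.01 over all probe sets. In 24 members the whole 95% interval of the TCDD slope lay within 0.1 log2 per 10-fold dose of 0, and in 25 members that of the PCB 126 slope did. For the others the intervals reached further. Over all members their limits ran from -0.18 to 0.24 for TCDD and from -0.27 to 0.25 for PCB 126.

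**Figure D1:**
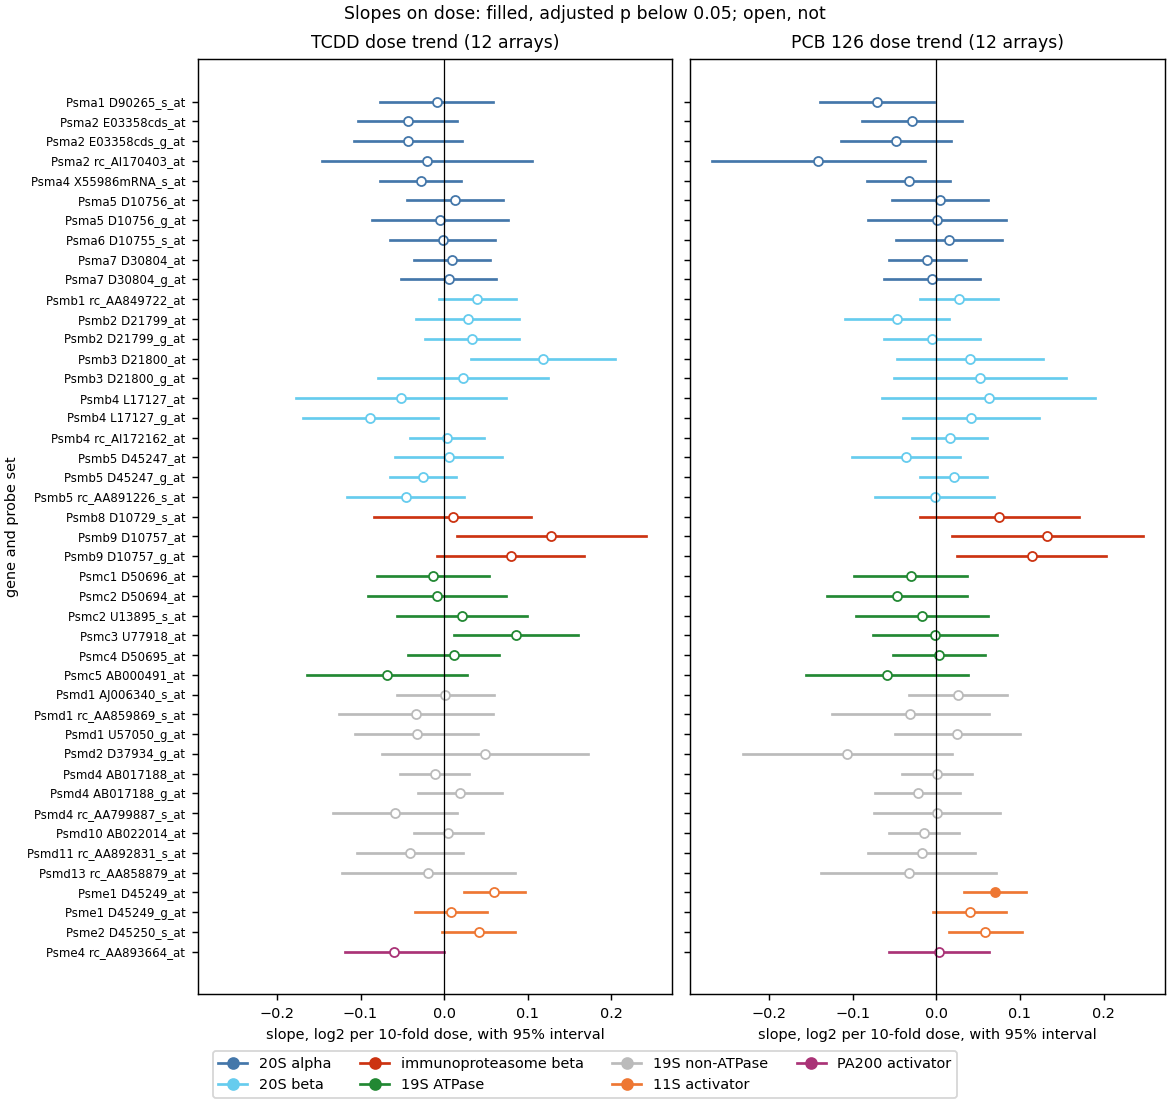
Slope of log2 signal per 10-fold dose with its 95% interval for each of the 44 probe sets that passed the filter, for TCDD (left) and PCB 126 (right), coloured by subunit class; filled points had an adjusted p below 0.05. Psme1 D45249_at on the right is the filled point, at 0.07, and the points of the immunoproteasome and 11S subunits lie above 0 in both panels.

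The clearest dose relation among the members was that of Psme1, the alpha subunit of the 11S activator, measured by D45249_at. In pool 2 its signal was 9.34 at the PCB 126 dose of -12, 9.41 at -11, 9.48 at -10, 9.57 at -9, 9.66 at -8, 9.82 at -6 and 9.91 at -5, against 9.41 on the vehicle array. These are the deposited values, and the array medians differed. The -5 array had a median of 3.78, against 3.48 to 3.60 on the other pool 2 arrays, and relative to the median of its own array the signal was 6.13 at -5 and 6.24 at -6. Without the -5 array of pool 2 the slope was 0.07 and no longer called (adjusted p = 0.0857). In pool 1 the signal was 10.21 at -12, 9.97 at -10, 10.52 at -8, 10.28 at -6 and 10.56 at -5, against 10.18 on the vehicle array, and the 3 highest doses lay above all lower ones. The slope was 0.07 ± 0.02 (SE) log2 per 10-fold PCB 126 dose, with adjusted p = 0.0230. On TCDD the same probe set had 9.84, 10.12, 10.35, 10.27 and 10.62 in pool 1 from -14 to -6.5. In pool 2 it had 9.41, 9.65, 9.58, 9.59, 9.77, 9.62 and 9.70 from -14 to -6.5, with the vehicle and the lowest dose lowest. The TCDD slope was 0.06 ± 0.02 and missed the threshold, with adjusted p = 0.0605. The PCB 126 call was lost when the array labelled -12 of pool 2 was left out (5 of 26 single arrays did so, all of PCB 126 at -12, -11, -6 or -5), when each array was centred on its median (slope 0.05, adjusted p = 0.107) and without the pool term (slope 0.08, adjusted p = 0.683).

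Markers of hepatocytes and of other cell types also had dose trends in limma. Tagln, an actin-binding protein of smooth muscle and activated stellate cells, fell with PCB 126 by both probe sets, M83107_at at -0.51 ± 0.11 (adjusted p = 0.00859) and M83107_g_at at -0.48 ± 0.09 (adjusted p = 0.00549). Its TCDD slopes, -0.31 and -0.28, were not called (adjusted p = 0.127 and 0.118). These were 2 of 9 stellate cell and fibroblast probe sets. Of 8 macrophage and Kupffer cell probe sets 1 was called with each chemical, that of the lysozyme gene Lyz2. It fell, at -0.19 ± 0.04 with TCDD (adjusted p = 0.00915) and -0.17 ± 0.04 with PCB 126 (adjusted p = 0.0222). Cd14, on the same list, had positive slopes by AF087943_s_at and AF087944mRNA_s_at, none called. They were 0.13 and 0.07 with TCDD (adjusted p = 0.105 and 0.319) and 0.07 and 0.11 with PCB 126 (adjusted p = 0.384 and 0.0515). The median slopes of the 8 were 0.00 with TCDD and 0.03 with PCB 126. Of 17 hepatocyte probe sets 1 rose with each chemical, D10261_g_at of the secreted glycoprotein Ahsg. Its slopes were 0.07 ± 0.02 with TCDD (adjusted p = 0.0249) and 0.09 ± 0.02 with PCB 126 (adjusted p = 0.00521). By X63446_at, Ahsg had slopes of 0.02 and 0.05 in turn, not called (adjusted p = 0.647 and 0.140). With TCDD 2 hepatocyte probe sets fell, both of the urea cycle gene Cps1, at -0.16 and -0.21 (adjusted p = 0.0440 and 0.0249). By Z27513exon_i_at, Cps1 had a TCDD slope of -0.01, not called in limma (adjusted p = 0.799). The part of these markers in the Psme1 trend and in the slopes of the other members was not tested.

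The second probe set of Psme1, D45249_g_at, had smaller slopes of the same sign, 0.04 ± 0.02 for PCB 126 and 0.01 ± 0.02 for TCDD, neither called. Its vehicle arrays, at 10.43 in pool 1 and 10.67 in pool 2, were the lowest of pool 1 and among the lower ones of pool 2. Its highest values were 11.27 on the pool 1 array of PCB 126 at -6 and 11.13 on the pool 2 array of TCDD at -11.

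Psme2, the partner of Psme1 in the 11S ring, was measured by D45250_s_at. With PCB 126 it read 9.31, 9.47, 9.72, 9.64 and 9.39 in pool 1 from -12 to -5, against 9.21 on the vehicle array. In pool 2 it read 8.95, 8.51, 8.84, 9.19, 9.17, 9.31 and 9.28 over the 7 doses, against 8.80 on the vehicle array, so the 4 highest doses exceeded the 3 lowest and the vehicle. The slopes were 0.06 ± 0.02 for PCB 126 (unadjusted p = 0.0108, adjusted p = 0.130) and 0.04 ± 0.02 for TCDD (adjusted p = 0.374) in limma, and neither was called.

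Psmb9, the immunoproteasome subunit that takes the place of Psmb6, had the largest positive slopes among the members, with both chemicals. Its D10757_at signal was 5.0 on the pool 1 vehicle array and 6.41 on that of pool 2. With PCB 126 it was 6.33, 5.92, 6.78, 7.18 and 7.02 in pool 1 from -12 to -5, so every array lay above its vehicle. In pool 2 it was 6.52, 6.15, 6.42, 6.81, 7.08, 7.11 and 6.80, above the vehicle on 6 of 7 arrays. With TCDD it was 4.54, 6.09, 4.82, 6.29 and 6.77 in pool 1, and in pool 2 it stayed between 6.32 and 7.0. The array of TCDD at -10 in pool 1 stood low, as it did for most members. The slopes were 0.13 ± 0.06 for PCB 126 (adjusted p = 0.212) and 0.13 ± 0.05 for TCDD (adjusted p = 0.261). The second probe set, D10757_g_at, had slopes of the same sign, 0.11 ± 0.04 and 0.08 ± 0.04 (with PCB 126 and TCDD in turn, adjusted p = 0.153 and 0.410 in limma).

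Psmb8, the immunoproteasome counterpart of Psmb5, read 8.25 and 8.61 on the vehicle arrays of pools 1 and 2 by D10729_s_at. With PCB 126 it was 8.51, 7.96, 8.45, 8.70 and 8.69 in pool 1, and 8.67, 8.76, 8.42, 8.71, 9.07, 9.03 and 9.18 in pool 2, where the 3 highest doses gave the 3 highest values of the series. The slopes, 0.08 ± 0.05 for PCB 126 and 0.01 ± 0.05 for TCDD, were not called. The TCDD array at -10 of pool 1 was the lowest of all, at 6.73.

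**Figure D2:**
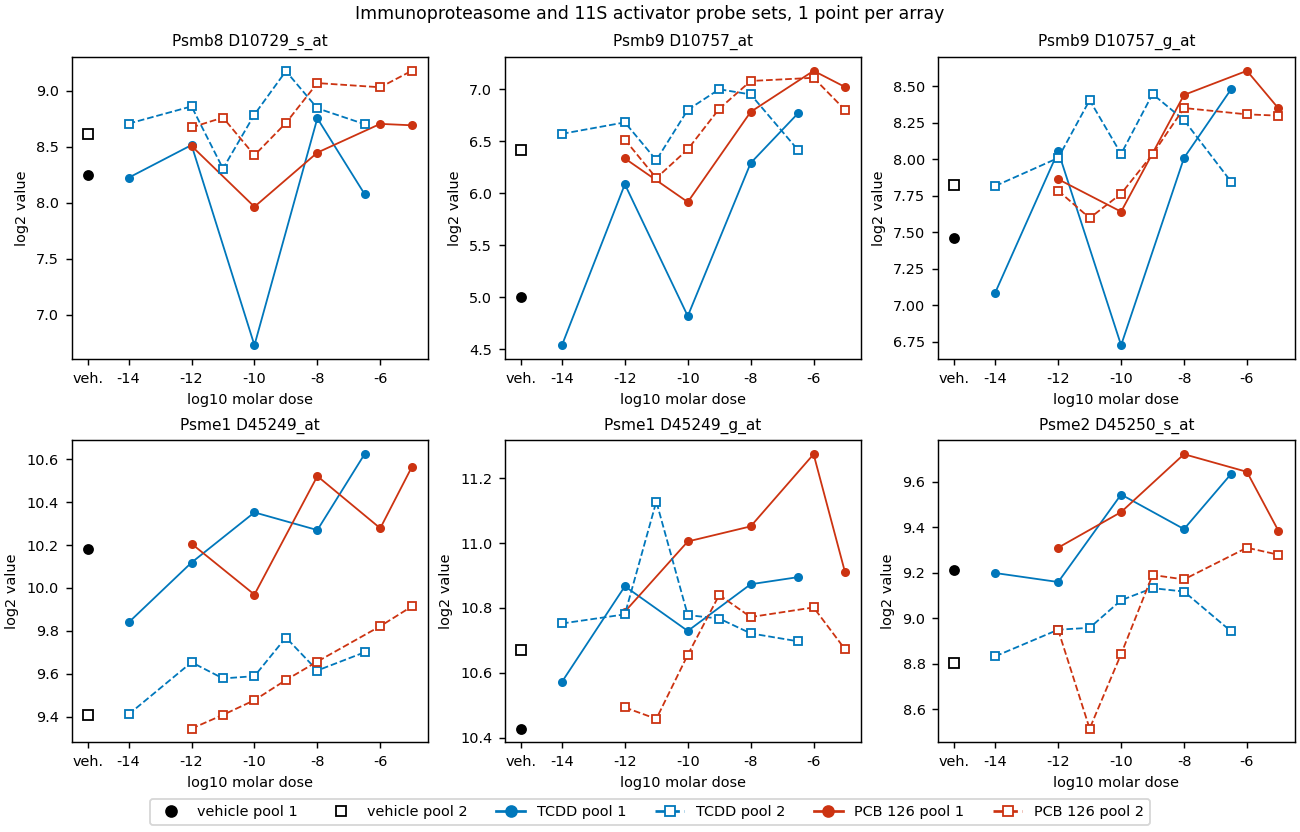
Log2 signal against log10 molar dose for the 6 probe sets of Psmb8, Psmb9, Psme1 and Psme2, 1 point per array, with the vehicle arrays at the left; blue is TCDD, red PCB 126, filled circles pool 1 and open squares pool 2. The PCB 126 points at -8 and above lie mostly above the lower doses, from 9.34 to 9.91 in the pool 2 series of Psme1 D45249_at.

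These 6 probe sets were put together after their values were seen, and they were not tested as a set. The counts below come from the same values, and the contrasts with vehicle were tested for each member on its own. The 6 had positive slopes on both chemicals in 6 of 6 cases, as did 13 of the 44 members in all. Of the members 12 had negative slopes on both and 19 had slopes of opposite sign. The share of all probe sets with both slopes positive was not counted. On both vehicle arrays 0 of 6 lay above their mean over the arrays of the same pool. The same held for TCDD at -14 in pool 1 and for PCB 126 at -12, -11 and -10 in pool 2. At PCB 126 doses of -8 and -6 all 6 lay above it in both pools, and at -5 5 of 6 did in both pools. Many of the other 38 members also did at -8 (25 in pool 1 and 27 in pool 2) and -6 (31 and 28), and fewer at -5 (11 and 13). The shares of all probe sets above it were 51.0% and 43.4% at -8, 47.8% and 52.8% at -6, and 38.1% and 53.0% at -5. At the lower PCB 126 doses 2 of the 6 lay above it at -12 and 2 at -10 in pool 1, and 3 at -9 in pool 2. With TCDD the counts of the 6 were less even over the doses. In pool 1 they were 4 at -12, 2 at -10 (median deviation -0.64), 5 at -8 and 5 at -6.5. In pool 2 they were 1 at -14, 4 at -12, 2 at -11, 3 at -10, 6 at -9, 5 at -8 and 1 at the highest dose, -6.5 (median deviation -0.07). In the mean of the 2 highest PCB 126 doses (4 arrays) against vehicle (2 arrays), 6 members had an unadjusted p below 0.05. They were Psmb9 by both probe sets (1.32 ± 0.44 and 0.75 ± 0.30 log2), Psme1 by both (0.35 ± 0.14 and 0.37 ± 0.15), Psme2 (0.40 ± 0.15) and Psmb3 D21800_g_at (0.87 ± 0.36). All 6 differences were positive and 0 of 44 members were called in limma, against 3.04% of all probe sets, and the smallest adjusted p among members was 0.166. The 6 made 13.6% of members, against 13.3% of all probe sets with an unadjusted p below 0.05. The 4 arrays include that of PCB 126 at -6 in pool 1, on which 31 of the other 38 members also lay above their pool mean (median deviation 0.39). Without that array 3 members had an unadjusted p below 0.05, 6.82% against 12.6% of all probe sets. In the same contrast for TCDD 0 of 44 were called, against 2.25% of all probe sets, and 1 had an unadjusted p below 0.05, Psme4 at -0.40 ± 0.18, which is 2.27% of members against 10.9% of all probe sets. There Psmb9 read 0.90 ± 0.44 and 0.51 ± 0.30, and Psme1 and Psme2 between 0.25 and 0.26.

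The promoters of these 4 genes are shown because their 6 probe sets had positive slopes with both chemicals; Psmb5, the constitutive catalytic subunit that Psmb8 replaces, is added for comparison. Each runs 5′ to 3′ on the gene's strand from 250 bases before to 50 bases after the start annotated by RefSeq in build GRCr8. Of the 27 genes 26 had an entry; Psma7 did not. Capitals mark the motifs searched on both strands, and no matches overlap in these windows. GCGTG is the core that the ligand-bound AhR recognises, TGACNNNGC the core of the antioxidant response element, CCAAT the CCAAT box, and TTCNNNGAA the gamma-activated site. The core of the interferon-stimulated response element was searched as a pair of GAAA with any 2 bases between; this motif and TTCNNNGAA were added after the dose results were seen. The regions are chr15:33038721-33039020 (plus strand) for Psme1, chr15:33052702-33053001 (minus strand) for Psme2, chr20:4668750-4669049 (plus strand) for Psmb9, chr20:4656982-4657281 (minus strand) for Psmb8 and chr15:32047330-32047629 (minus strand) for Psmb5.
Psme1: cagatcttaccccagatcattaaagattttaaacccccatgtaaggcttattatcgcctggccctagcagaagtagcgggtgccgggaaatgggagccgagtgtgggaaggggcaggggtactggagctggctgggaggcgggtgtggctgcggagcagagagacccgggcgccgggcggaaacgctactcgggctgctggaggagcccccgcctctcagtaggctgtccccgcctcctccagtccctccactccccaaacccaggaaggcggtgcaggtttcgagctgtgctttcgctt
Psme2: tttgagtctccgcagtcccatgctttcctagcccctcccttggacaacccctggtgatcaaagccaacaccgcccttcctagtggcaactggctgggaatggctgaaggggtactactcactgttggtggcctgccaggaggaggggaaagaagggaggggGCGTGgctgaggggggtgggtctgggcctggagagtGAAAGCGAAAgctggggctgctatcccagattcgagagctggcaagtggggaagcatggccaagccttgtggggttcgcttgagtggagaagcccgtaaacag
Psmb9: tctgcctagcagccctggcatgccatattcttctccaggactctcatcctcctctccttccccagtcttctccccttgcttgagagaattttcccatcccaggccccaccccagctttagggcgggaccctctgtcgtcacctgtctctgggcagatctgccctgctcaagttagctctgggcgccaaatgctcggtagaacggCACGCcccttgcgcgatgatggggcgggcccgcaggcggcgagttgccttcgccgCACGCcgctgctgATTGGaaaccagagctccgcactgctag
Psmb8: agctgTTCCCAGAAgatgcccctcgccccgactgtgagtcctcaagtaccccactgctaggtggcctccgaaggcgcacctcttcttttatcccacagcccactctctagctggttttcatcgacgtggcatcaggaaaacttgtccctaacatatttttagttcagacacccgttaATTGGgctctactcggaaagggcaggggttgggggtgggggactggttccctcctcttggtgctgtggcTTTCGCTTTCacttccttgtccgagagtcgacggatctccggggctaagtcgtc
Psmb5: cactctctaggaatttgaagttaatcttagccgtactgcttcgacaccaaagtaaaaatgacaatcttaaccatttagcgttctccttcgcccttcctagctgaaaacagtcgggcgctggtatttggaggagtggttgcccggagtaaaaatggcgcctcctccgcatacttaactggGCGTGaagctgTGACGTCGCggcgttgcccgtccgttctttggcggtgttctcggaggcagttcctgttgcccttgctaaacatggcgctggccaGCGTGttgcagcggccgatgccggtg

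Positions below are the base where a match on either strand starts. The window of Psme1 holds none of these motifs. That of Psme2 holds GCGTG 89 bases before the start and the interferon-stimulated core 53 bases before it. The window of Psmb9 holds GCGTG 46 bases before the start and again at base 10 after it, and CCAAT at base 23. The window of Psmb8 holds TTCNNNGAA 245 bases before the start, CCAAT 73 bases before it and the interferon-stimulated core 4 bases before it. That of Psmb5 holds GCGTG 71 bases before the start and at base 25 after it, with TGACNNNGC 60 bases before it. Among the 26 member promoters GCGTG occurred in 17, CCAAT in 14, TGACNNNGC in 4, the interferon-stimulated core in 4 and TTCNNNGAA in 1. Of all 33469 promoters of the same length, 29.7%, 37.5%, 12.1%, 3.92% and 8.87% hold them in that order. Enrichment among the members was not tested, and the promoters were not matched for base composition. The 4 with the interferon-stimulated core were those of Psma4, Psmb3, Psmb8 and Psme2. In RefSeq's order of protein-coding genes a single gene, Tap1, lies between Psmb8 and Psmb9, and a single gene, Emc9, between Psme1 and Psme2.

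Of the 10 alpha-ring probe sets 7 had a negative PCB 126 slope and 7 a negative TCDD slope, some of them near 0. The median slopes over all probe sets were 0.01 and -0.01 in turn. When each array was centred on its median, the TCDD slopes of Psma6 and Psma5 D10756_g_at turned positive. The PCB 126 slopes of Psma6 and of both Psma5 probe sets then turned negative. In the alpha ring 0 slopes were called, and 2 had an unadjusted p below 0.05 with PCB 126 against 0 with TCDD. These were Psma1 D90265_s_at, at -0.07 ± 0.03 (adjusted p = 0.272), and Psma2 rc_AI170403_at, at -0.14 ± 0.06 (adjusted p = 0.240). On the pool 2 array at the highest PCB 126 dose Psma1 read 7.85, while the other pool 2 arrays lay between 8.47 and 8.84. Psma2 rc_AI170403_at read 8.13 on that array and 9.06 at -6, with the other pool 2 arrays between 9.20 and 9.93. In pool 1 its values with PCB 126 were 8.28, 8.02, 7.25, 8.40 and 6.90 from -12 to -5, so the highest dose was the lowest but the order was not steady. The other probe sets of Psma2 had slopes of -0.03 and -0.05, of the same sign. Psma4, Psma5, Psma6 and Psma7 had PCB 126 slopes from -0.03 to 0.01. Both Psma1 and Psma2 rc_AI170403_at were called as falling with PCB 126 when the TCDD array at -10 and the PCB 126 array at -6 of pool 1 were left out, an alternative chosen after the data were seen.

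In the beta ring the constitutive catalytic subunit Psmb5 had slopes of mixed sign. Its 3 probe sets had PCB 126 slopes of -0.04, 0.02 and -0.00 and TCDD slopes of 0.01, -0.03 and -0.05, none called. A single contrast of a dose with vehicle called a member, Psmb5 D45247_at at TCDD -11, 1 of 44 members there against 2.39% of all probe sets. It rests on 1 array of pool 2, at 9.29 against 10.21 on the pool 2 vehicle array, with a difference of -0.99 ± 0.22 after the pool term (adjusted p = 0.0300). That array had the highest 3′ minus 5′ signal of the 26 for the actin controls (2.19, the next 1.68) and for the GAPDH controls (1.24, the next 0.73), and the part of RNA quality in the call was not tested. Of all probe sets 13.3% had an unadjusted p below 0.05 in that contrast, against 9.09% of members. On that array D45247_g_at of the same gene was at 10.82, the highest of all 26 arrays, and rc_AA891226_s_at at 9.45, so the probe sets of Psmb5 disagreed in direction. The call was lost after centring each array (adjusted p = 0.0545), without the pool term (difference -0.75, adjusted p = 0.911) and without either vehicle array. In the other 13 contrasts of a dose with vehicle 0 of 44 members were called in limma, with 0 to 7 at an unadjusted p below 0.05. The 7 were at PCB 126 -6, all positive, and made 15.9% of members against 9.62% of all probe sets. One of the 2 arrays there is that of pool 1, on which 37 of 44 members lay above their pool mean; without it 1 member had an unadjusted p below 0.05, 2.27% against 6.06% of all probe sets. The shares of all probe sets called were 0% at TCDD -14 and -12, 1.23% at -10, 0.731% at -9, 2.12% at -8 and 0.616% at -6.5. With PCB 126 they were 0% at -12, -11, -10 and -9, 1.4% at -8, 1.48% at -6 and 3% at -5.

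Psmb3, a structural beta subunit, was the single member called for a TCDD slope that differed between the pools, and its probe sets differed in how far. By D21800_at the pool 1 signal was 6.62 with vehicle, 5.51 at -14, 6.23 at -12, 6.73 at -10, 7.44 at -8 and 7.38 at -6.5. In pool 2 it was 7.41 with vehicle and 7.40, 7.41, 7.52, 7.09, 7.30, 7.29 and 7.34 from -14 to -6.5, without a steady direction. At the 2 highest doses the pools met, and the gap lay at the low doses and the vehicle, where pool 1 was lower. The slope was 0.26 ± 0.03 in pool 1 (adjusted p = 0.000217) and -0.02 ± 0.03 in pool 2, not called, and the difference of pool 2 minus pool 1, -0.28 ± 0.05, passed the test (adjusted p = 0.0291), 1 of 44 members against 0.0577% of all probe sets. By D21800_g_at the pool 1 values were 7.0 with vehicle and 6.85, 7.85, 7.17, 8.55 and 7.24 from -14 to -6.5, with no steady order. Its slopes were 0.09 ± 0.06 in pool 1 and -0.04 ± 0.06 in pool 2, and the difference of -0.12 ± 0.08 was not called (adjusted p = 0.733). With PCB 126 D21800_at had slopes of 0.04 ± 0.04 and 0.02 ± 0.03 in the pools, neither called. Without the pool 1 array at TCDD -14, the lowest, the difference was -0.25 and no longer called (adjusted p = 0.406).

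**Figure D3:**
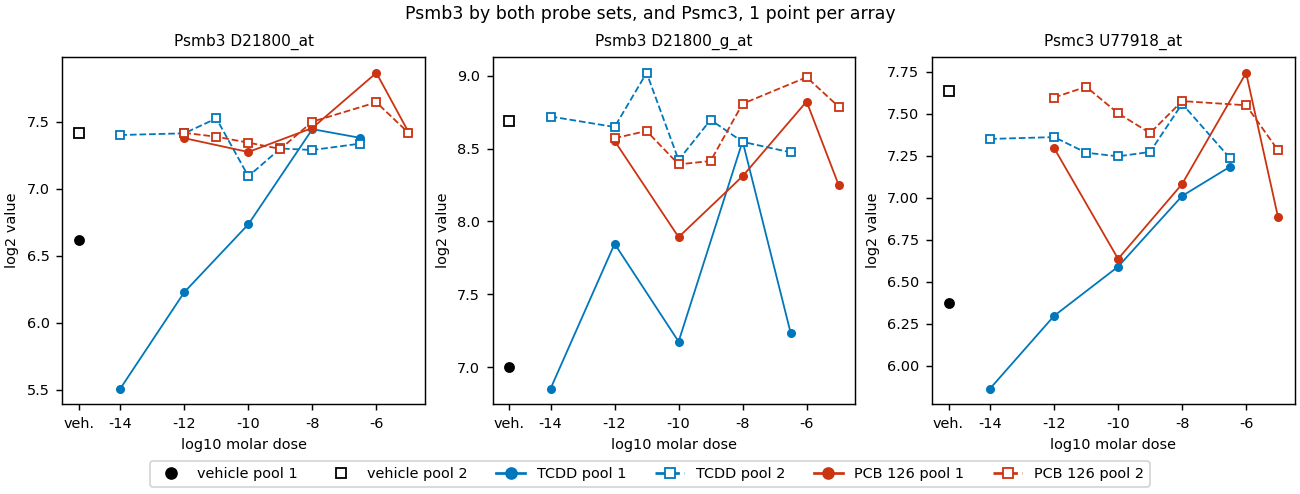
Log2 signal against log10 molar dose for both Psmb3 probe sets and for Psmc3, 1 point per array, with the vehicle arrays at the left; blue is TCDD, red PCB 126, filled circles pool 1 and open squares pool 2. The solid blue line of Psmb3 D21800_at climbs from 5.51 to 7.38, while the dashed blue line of pool 2 stays between 7.09 and 7.52.

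The TCDD slope of pool 1 was also called for Psmb9 D10757_at (0.24 ± 0.06), for the 19S ATPase Psmc3 (0.18 ± 0.04) and for Psme1 D45249_at (0.09 ± 0.02), which makes 4 of 44 members against 4.41% of all probe sets. Psmc3 read 5.86, 6.30, 6.59, 7.01 and 7.18 from -14 to -6.5 in pool 1, each above the dose before, against 6.37 with vehicle. In pool 2 it lay between 7.23 and 7.56, with 7.63 on the vehicle array, and the difference in slope between the pools was -0.18 ± 0.06, not called (adjusted p = 0.297). In a fit of pool 1 alone 0 members were called. For pool 2 with TCDD, pool 1 with PCB 126 and pool 2 with PCB 126, 0 of 44 members were called, with 0, 1 and 3 at an unadjusted p below 0.05 in limma. The shares of all probe sets called there were 0.231%, 0.173% and 0%.

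The other subunits gave no call in either dose trend over both pools. Of the 6 probe sets of 19S ATPases, 3 had a positive TCDD slope and 1 a positive PCB 126 slope; the range was -0.07 to 0.09 for TCDD and -0.06 to 0.00 for PCB 126. Psmc5 had the lowest slopes of these, -0.07 ± 0.05 and -0.06 ± 0.05. Of the 10 probe sets of 19S non-ATPase subunits, 4 had a positive slope with each chemical. Psmd2, a scaffold of the base, had slopes of 0.05 ± 0.06 with TCDD and -0.11 ± 0.06 with PCB 126. The ubiquitin receptor Psmd4 had TCDD slopes of -0.01, 0.02 and -0.06 by its 3 probe sets. Psme4, a dim probe set between 4.12 and 5.33, had a TCDD slope of -0.06 ± 0.03 (adjusted p = 0.344) and a PCB 126 slope of 0.00 ± 0.03.

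Genes with several probe sets often had dose slopes of mixed sign, some of them near 0, and differences between probe sets of a gene were not tested. Of the 12 genes with 2 or more probe sets past the filter, 6 had TCDD slopes of the same sign in all of them, 9 had PCB 126 slopes of the same sign, and 10 had pool differences of the same sign. Psmb4 was among the mixed ones, with TCDD slopes of -0.05, -0.09 and 0.00 by L17127_at, L17127_g_at and rc_AI172162_at. L17127_at ran from 9.77 to 11.77 in pool 1, while rc_AI172162_at ran from 10.16 to 10.84.

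TCDD and PCB 126 are planar chlorinated aromatics. The rings of TCDD are held by oxygen bridges and those of PCB 126 by a single bond. They were compared by slope and at 5 matched doses. No difference in slope was called among 44 members or among all 5197 probe sets (0%), and 1 member had an unadjusted p below 0.05, Psmb4 L17127_g_at at -0.13 ± 0.06 (TCDD minus PCB 126). For Psme1 D45249_at the difference was -0.01 with a 95% interval from -0.06 to 0.04. It was -0.02 (-0.08 to 0.04) for Psme2, -0.00 (-0.17 to 0.16) for Psmb9 D10757_at and -0.07 (-0.20 to 0.07) for Psmb8.

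At the matched doses, with 1 adjustment over all probe sets per dose in limma, 0 of 44 members were called at -12, -11, -10, -9 and -8. The shares of all probe sets called were 0%, 2.62%, 0.0385%, 0% and 0%, and 0, 3, 6, 0 and 2 members had an unadjusted p below 0.05. At -11, where each chemical has 1 array, the 3 were Psmb5 D45247_at at -0.83 ± 0.25, Psme1 D45249_g_at at 0.67 ± 0.24 and Psme4 at 0.92 ± 0.30, TCDD minus PCB 126. These were 6.82% of members, against 13.3% of all probe sets. That TCDD array was the highest of pool 2 for Psme1 D45249_g_at (11.13) and Psme4 (5.33). It is also the array with the highest actin and GAPDH 3′ minus 5′ signals (2.19 and 1.24), whose part in these differences was not tested. At -10 the median member difference was -0.28, against 0.01 over all probe sets, and 9 of 44 were positive. One of the 2 TCDD arrays there is that of pool 1, which stood low for most members. Its median member lay at -0.42 from the pool mean, against -0.04 on the pool 2 array of TCDD at -10. Leaving out the pool 2 array of TCDD at -10, which leaves the pool 1 array alone, raised the count at -10 from 0 to 8. At -8 Psmb9 D10757_at read 6.29 and 6.95 with TCDD and 6.78 and 7.08 with PCB 126 in pools 1 and 2, a difference of -0.31 with an interval from -1.41 to 0.78. Psme1 D45249_at differed by -0.15 there, with an interval from -0.50 to 0.21, and Psme2 by -0.19, from -0.56 to 0.18. The highest doses, -6.5 for TCDD and -5 for PCB 126, differ and were not compared.

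Differences between the pools were far more frequent among the members than dose trends. Of 44 members 35 differed between the pools, 31 higher and 4 lower in pool 2, while 79.8% of all probe sets were called, so the share of members called was near the background. The direction was less even than in the whole table, where 2080 probe sets were higher (40%) and 2065 lower (39.7%). The median member difference was 0.38 log2, against 0.02 over all probe sets. Members and the whole table were not matched for signal level, whose part in the direction was not tested. Without the filter on low values, 31 members were called higher and 9 lower in pool 2. Among the dim ones, Psme1 rc_AA799484_at averaged 2.53 in pool 1 and 2.34 in pool 2. All 10 alpha-ring probe sets were higher in pool 2, by 0.21 for Psma7 D30804_at to 1.81 ± 0.21 for Psma2 rc_AI170403_at. Of the beta ring 7 of 11 were higher and 1 lower, of the 19S ATPases 5 of 6 were higher, and of the 19S non-ATPases 7 of 10 were higher and 1 lower. Psmd11, a lid subunit, averaged 8.36 ± 0.37 (SD over the 11 arrays) in the first pool and 9.43 ± 0.15 (SD over the 15 arrays) in the second. The pools did not overlap, since pool 1 reached 9.03 and pool 2 began at 9.08. Complete separation held for 3 members, all higher in pool 2, against 5.79% of all probe sets higher and 5.46% lower.

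The 11S activator subunits Psme1 and Psme2 were lower in pool 2. Psme1 D45249_at averaged 10.27 ± 0.24 (SD) on the 11 arrays of pool 1 and 9.59 ± 0.17 (SD) on the 15 of pool 2, a difference of -0.66 ± 0.06, and the Psme2 difference was -0.41 ± 0.07. Psme1 D45249_g_at, at -0.12 ± 0.07, was not called. The other members lower in pool 2 were Psmb4 L17127_at (-1.08 ± 0.21) and Psmd10, a chaperone of 19S assembly (-0.20 ± 0.07). The other Psmb4 probe sets, at -0.27 ± 0.13 and 0.07 ± 0.07, were not called. The medians of the arrays were 3.85 ± 0.08 (SD) for pool 1 and 3.58 ± 0.07 (SD) for pool 2. This shifts the median difference by 0.27 when each array is centred on its median. Then 38 members were higher and 2 lower in pool 2, with a member median of 0.65 against 0.30 over all probe sets, of which 2959 were higher and 1409 lower. Signal level was not matched here either. The 2 members called lower after centring were Psme1 D45249_at (-0.39) and Psmb4 L17127_at (-0.81). In limma Psme2 kept its sign but not its call (-0.14, adjusted p = 0.0944), and Psmd10 changed sign (0.07), as did Psme1 D45249_g_at (0.15).

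**Figure D4:**
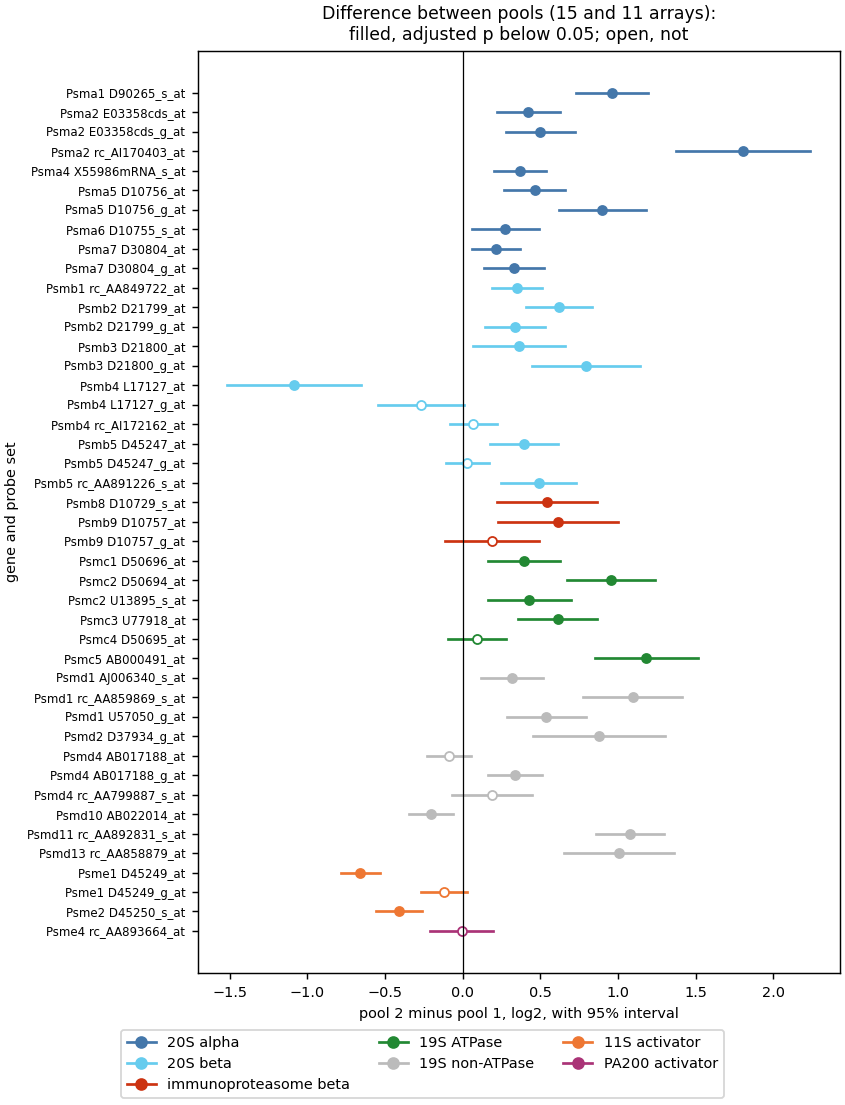
Difference of pool 2 minus pool 1 in log2 signal with its 95% interval for each of the 44 probe sets, coloured by subunit class; filled points had an adjusted p below 0.05. The alpha-ring points all lie above 0, from 0.21 to 1.81, and the 11S activator points lie below 0, where that of Psme1 D45249_g_at turns to 0.15 when arrays are centred on their medians.

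Array quality moved with the pool. The 3′ minus 5′ signal of the actin control probe sets averaged 0.82 ± 0.12 (SD) over the pool 1 arrays and 1.51 ± 0.22 (SD) over those of pool 2, and the pools did not overlap (highest 1.06, lowest 1.24). That of the GAPDH controls averaged 0.39 ± 0.12 (SD) and 0.58 ± 0.20 (SD) in turn. There the pools overlapped, from 0.24 to 0.64 in pool 1 and from 0.42 to 1.24 in pool 2. Pool, animals and RNA quality cannot be told apart. Members also spread more in pool 1. Their median SD over arrays was 0.36 in pool 1 and 0.17 in pool 2, against 0.26 and 0.19 over all probe sets, and 40 of 44 members had the larger SD in pool 1, against 77.3% of all probe sets.

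In pool 1 a pair of arrays stood apart for most members. On the array of TCDD at -10 the median member lay 0.42 log2 below its pool mean (-0.42) and 10 of 44 lay above it, and Psma2 rc_AI170403_at was at 5.77, its lowest value of all arrays. On the array of PCB 126 at -6 the median member lay 0.40 above and 37 of 44 lay above their pool mean. The medians over all probe sets on these arrays were 0.00 and -0.02. In pool 2 no array's member median was farther than 0.0991 from the pool mean. Without this pair Psme1 D45249_at was called with both chemicals.

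**Figure D5:**
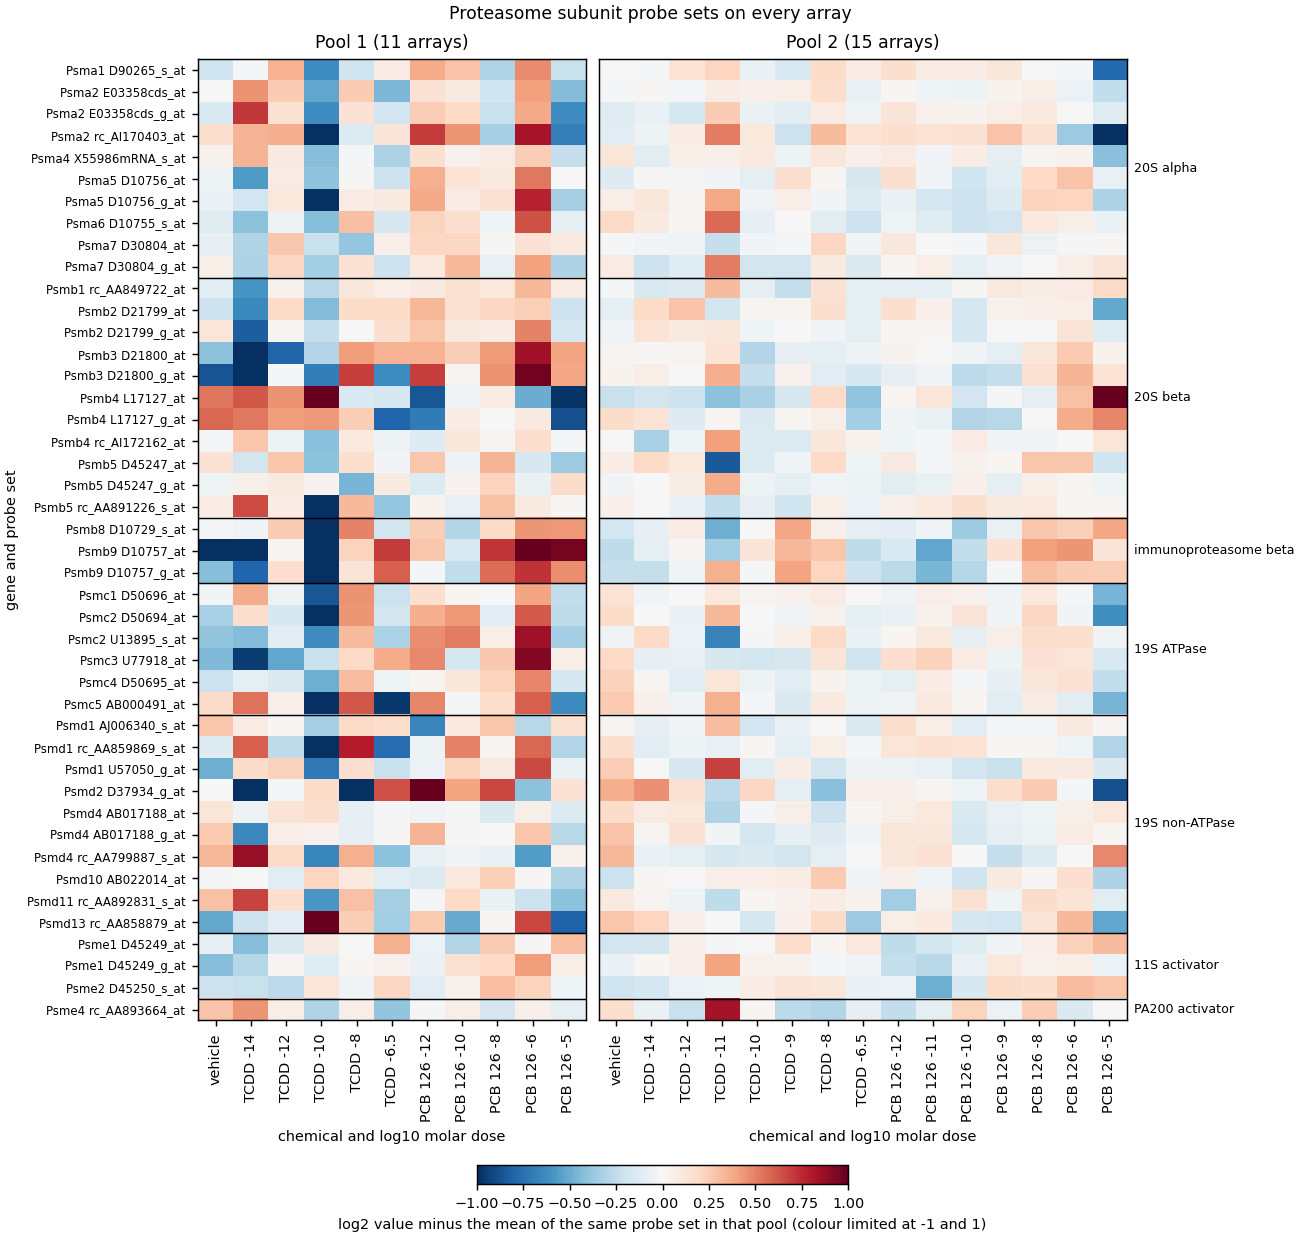
Log2 signal of each of the 44 probe sets on each array minus the mean of the same probe set over that pool, pool 1 left and pool 2 right, with probe sets grouped by subunit class and colours limited at -1 and 1. The blue column of TCDD at -10 and the red column of PCB 126 at -6 in pool 1 carry the member medians of -0.42 and 0.40.

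The ubiquitin system outside the proteasome gave 0 calls on either chemical among 18 probe sets of 11 genes in limma, with 3 at an unadjusted p below 0.05 for TCDD and 2 for PCB 126. Among them Pomp, which helps assemble the core, had slopes of 0.06 ± 0.03 with TCDD and 0.02 ± 0.03 with PCB 126. Nfe2l2, a transcription factor that activates proteasome genes under oxidative stress, had TCDD slopes of 0.09 ± 0.04 and 0.11 ± 0.03 (adjusted p = 0.246 and 0.101) and PCB 126 slopes of 0.03 and -0.00. Of 10 probe sets for antigen presentation 0 were called, with 2 at an unadjusted p below 0.05 for each chemical. Irf1, an interferon-induced activator of Psmb9, had slopes of 0.16 ± 0.06 and 0.17 ± 0.06 with TCDD and 0.14 ± 0.06 and 0.13 ± 0.06 with PCB 126, none called (adjusted p from 0.130 to 0.329). The peptide transporter gene Tap1 had slopes of 0.01 and 0.04 with TCDD and -0.02 and -0.04 with PCB 126, and its partner Tap2 had -0.04 and 0.00. No difference between these slopes and those of the members was tested. B2m, the light chain of class I molecules, had 0.03 ± 0.02 and -0.01 ± 0.02.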

How the data were processed

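The authors deposited log2 expression values, 1 column per array, running from -1.43 to 15.01. The submitters' processing notes name GCRMA 2.8.0 and RMA, without settings or roles in the sources used here. Probe sets ending in _s can share sequence between related genes. Precision is limited by the number of arrays.

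After 59 control probe sets were set aside, 5197 of 8740 passed the filter. limma 3.58.1 (R 4.3.3; eBayes, trend and robust options) was tested on simulated data. The dose model held pool, chemical and 1 slope per chemical, with 20 residual degrees of freedom. The group model held pool and 15 groups, with 10. Another model gave each pool its own slopes. Groups with a single array borrow the spread of the rest. Pool served as the replicate block, since both labels and data pair arrays by pool: over 11 groups the deviations correlated at 0.46 to 0.89. No pair of arrays was identical (highest r = 0.998).

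All 49 members' Entrez identifiers were found in the current rat gene table. Described in full were members called in a trend, a matched-dose, slope-difference or high-dose contrast, the 3 with the smallest p per trend, genes with several probe sets, catalytic and immunoproteasome subunits and activators. Members, lists and tests were chosen with earlier results of these data known. Alternatives changed the scaling, filter, block, variance prior and arrays used. Promoters came from RefSeq (GRCr8).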

Additional observations from a re-analysis of the deposited data

Results flagged for a closer look

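The TCDD slope of Psmb3 by D21800_at differed between the pools, by -0.28 log2 per 10-fold dose (pool 2 minus pool 1; limma, adjusted p = 0.0291), with every other member's difference short of the threshold. The other probe set of Psmb3 had a difference of -0.12 that was not called. The pool 1 arrays at TCDD -14 and -12 were the lowest of the 26 for D21800_at. Whether array quality or the animals of the pool bear on this was not tested.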

How the results depend on the processing

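Psme1 D45249_at was the 1 member called with PCB 126. The count was 0 after centring each array on its median, without the array labelled PCB 126 -12 of pool 2, in pool 1 alone, with only doses that have an array of each pool and without the highest PCB 126 dose. It was 3 with only the PCB 126 arrays (Psme1 and both Psmb9 probe sets) and 3 when the vehicle entered the slope as a dose 10-fold under the lowest. Without the TCDD -10 and PCB 126 -6 arrays of pool 1, an alternative chosen after seeing the data, it was 3. For TCDD the count of 0 became 1, Psme1 D45249_at, with the plain variance prior, with the vehicle entered as a dose and without that pair of arrays. The cause was not tested.

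Without the pool as a replicate block the PCB 126 count and the count of dose-against-vehicle calls were each 0. Centring also brought the latter to 0.

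Leaving out 1 array at a time gave 0 to 3 calls for PCB 126, 0 to 1 for TCDD, 0 to 1 for the difference of slopes between pools, 34 to 36 between pools, and 0 to 8 both at the matched dose of -10 and for doses against vehicle. The 8 came without the TCDD -10 array of pool 2. The Psme1 slope ran from 0.06 to 0.08 (adjusted p 0.0117 to 0.0857) and the Psmb3 difference from -0.33 to -0.25 (adjusted p 0.00712 to 0.406). That difference was not called without TCDD -14 of either pool, TCDD -12 of pool 2 or PCB 126 -9 of pool 2.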
